A study of Mus musculus with 6 samples.

Results

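The Toll-like receptors were followed in the spleen of weanling mice after developmental lead exposure. Probes were taken whose only gene symbol in the platform annotation is Tlr1 to Tlr9 or Tlr13 and which lie below array row 402. Of these 10 receptors 8 were measured, with 1 probe each, of 17848 genes with a single-symbol probe among the 34949 probes used. The probe of Tlr3 lies in array row 402, where the control arrays did not follow each other, and no probe carries Tlr13 as its single symbol, so these receptors enter no comparison. The animals were female BALB/c, aged 21 postnatal days. Spleen total RNA was taken from 3 controls, for which the labels name no treatment, and from 3 mice given lead (Pb) at 0.1 mM since gestation day 8. The labels do not give the route of exposure, the litters or whether dams were shared, so p-values measure only the spread between these arrays. Each sample was read on 1 CodeLink mouse whole genome array, in 1 colour (Cy5). The question, from the series title, is what lead exposure during development does to factors of the spleen.

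Toll-like receptors are membrane proteins of innate immune cells that recognise molecules of microbes. Those at the cell surface bind bacterial lipoproteins, lipopolysaccharide and flagellin, and those in endosomes bind nucleic acids. On binding they recruit the adaptors MyD88 or TRIF, and the signal passes through kinases of the IRAK and IKK families to NF-kB and interferon regulatory factors, which raise transcription of cytokines such as TNF. In the spleen they are carried by macrophages, dendritic cells, neutrophils and B cells.

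The values compared are log2 intensities after removal of brightness that changes with position on the array, and the median of an array lies near 0. The array of Pb replicate 3 was left out because it was almost unrelated to the controls probe by probe (r across probes 0.0456 to 0.0484). Comparisons are therefore 3 control arrays against Pb replicates 1 and 2. In Pb replicate 2 the lowest r with a control was 0.663 before correction and 0.925 after it, and deviations stayed wider, with a scaled median absolute deviation of 0.589 against 0.236 to 0.293 in the other 4 arrays. Some markers of spleen cells were bright in the controls: Ms4a1, the B cell protein CD20, at 5.70 ± 0.06 and Cd3g, a T cell receptor chain, at 5.22 ± 0.17. Lyz2, the lysozyme of myeloid cells, was at 7.03 ± 0.21 and Alas2, of erythroid haem synthesis, at 7.85 ± 0.42 (log2 intensity, SD, n = 3). Other markers of such cells were dimmer, among them Pax5 of B cells at -0.73, Cd3e of T cells at 1.46 and Adgre1 of macrophages at 0.55.

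None of the 8 receptors passed the test. With limma and Benjamini-Hochberg adjustment over 24464 probes, 0 receptors rose and 0 fell at an adjusted p of 0.05, where 0.0572% of all probes tested were called. At an unadjusted p of 0.05, 0 of 8 receptors were past it and 7.24% of all probes. The adjusted p of the receptors lay between 0.622 and 0.785. The difference was above 0 for 6 of 8 receptors and for 53.6% of all probes, with a median of 0.26 on the log2 scale against 0.028 over all probes tested.

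**Figure D1:**
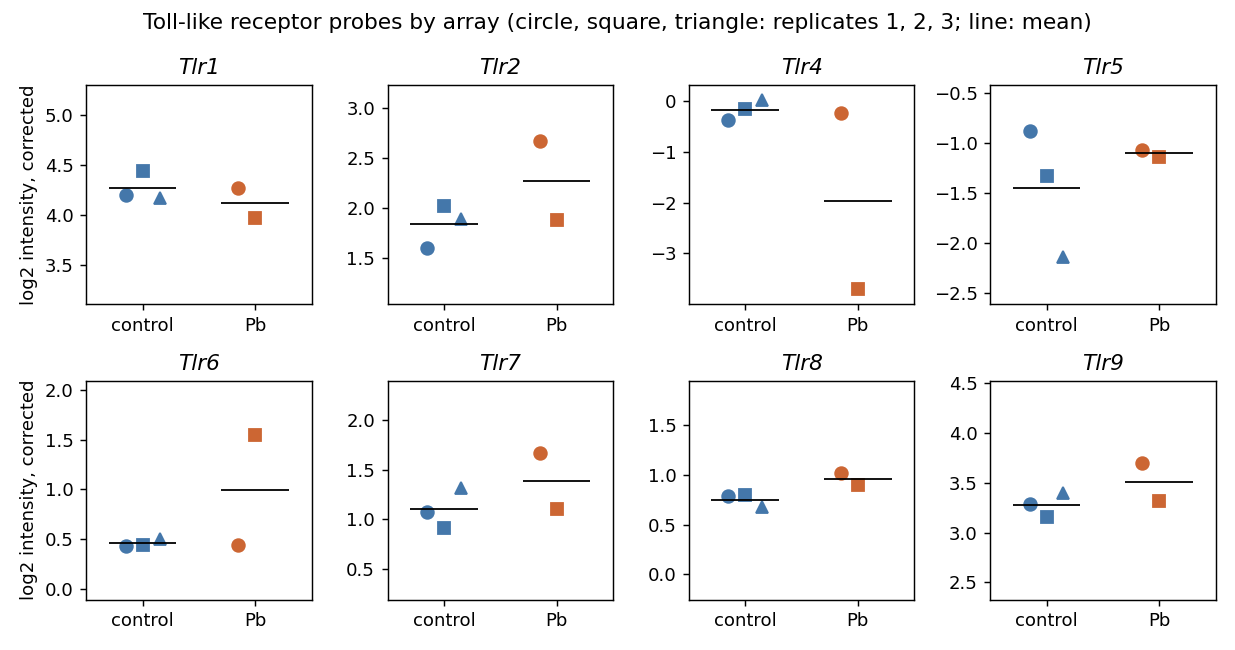
Corrected log2 intensity of each Toll-like receptor probe (vertical axes, with a different range in each panel) in 3 control arrays (blue) and Pb replicates 1 and 2 (orange); lines are group means. Only Tlr8 has both Pb arrays above all controls, and the low point of Tlr4 and the high point of Tlr6 are both Pb replicate 2.

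Tlr1, Tlr2 and Tlr6 recognise bacterial lipoproteins, with TLR2 pairing with either of the others. Tlr2 was at 1.60, 2.02 and 1.89 in control replicates 1, 2 and 3 and at 2.67 and 1.88 in Pb replicates 1 and 2. Pb replicate 1 was above every control and Pb replicate 2 lay among them, so the groups overlap. Tlr2 differed by 0.44 on the log2 scale (SE 0.28, 95% confidence interval -0.26 to 1.14, limma adjusted p = 0.639). Without Pb replicate 2 it was 0.84 and without Pb replicate 1 it was 0.018, with adjusted p of 0.619 and 0.971 in limma, so its size rests on Pb replicate 1.

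Tlr1 was at 4.20, 4.44 and 4.17 in controls and at 4.26 and 3.97 in Pb arrays. The higher Pb value lay among the controls and the lower one under all of them. Tlr1 differed by -0.16 (SE 0.19, interval -0.63 to 0.31, limma adjusted p = 0.785). After the position correction a fall of more than 0.63 lay outside the interval. That bound depends on the correction, since the difference was -1.61 without it. Corrected values near this probe also spread widely in Pb replicate 2. There the 10 neighbouring probes on the array had quartiles of -1.14 and 1.01, as differences from their control means. The interval does not take that local spread into account.

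Tlr6, whose gene neighbours Tlr1 in the genome, had the tightest controls of the family, at 0.43, 0.44 and 0.50 (SD 0.04, n = 3). Pb replicate 1 was at 0.44, inside that range, and Pb replicate 2 at 1.55, far above it. The log2 difference of 0.54 (SE 0.33, interval -0.27 to 1.35, limma adjusted p = 0.631) thus comes from 1 array. Without Pb replicate 2 it was -0.016 (adjusted p = 0.981 in limma). Without Pb replicate 1 it was 1.09 with an adjusted p of 0.020 in limma, in a fit that called 11.8% of all probes.

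Tlr4, the receptor for lipopolysaccharide, had the largest difference and the widest interval. It was at -0.38, -0.16 and 0.02 in controls and at -0.23 and -3.69 in Pb arrays. Pb replicate 1 lay among the controls. The deposited intensity of this probe in Pb replicate 2 was -0.354, below 0, and was raised to a floor before log2 was taken. Its level there is therefore not known, and the cause of the value was not tested. In that array 173 of the tested probes (0.707%) were at or under 0. Of all deposited probes 711 were so in Pb replicate 2, against 151 to 267 in the other 4 arrays used. No other deposited receptor value on the 5 arrays was at or under 0. Tlr4 differed by -1.79 (SE 0.93, interval -4.07 to 0.48, limma adjusted p = 0.622), but this size and interval depend on the floor. With a pseudocount in its place the difference was -1.13 (SE 0.56). Without Pb replicate 2 it was -0.062 (adjusted p = 0.941 in limma), and without Pb replicate 1 it was -3.52 (adjusted p = 0.0025 in limma), again in the fit that called 11.8% of all probes.

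Tlr5, the receptor for flagellin, was the dimmest probe, with a mean at the 33.0th percentile of all probes used, close to the 30th percentile set as the limit for testing. It was at -0.88, -1.33 and -2.15 in controls and at -1.07 and -1.13 in Pb arrays. Both Pb values lay inside the control range, which was the widest of the family (SD 0.64, n = 3). The log2 difference was 0.35 (SE 0.37, interval -0.56 to 1.26, limma adjusted p = 0.754). No detection calls were used, so whether Tlr5 was above background is not known.

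Tlr7, Tlr8 and Tlr9 sit in endosomes and recognise nucleic acids. Tlr7, a receptor for single-stranded RNA found in plasmacytoid dendritic cells and B cells, was at 1.08, 0.92 and 1.31 in controls and at 1.67 and 1.11 in Pb arrays. Pb replicate 1 was above all controls and Pb replicate 2 among them. The log2 difference was 0.29 (SE 0.24, interval -0.30 to 0.87, limma adjusted p = 0.694). It was 0.57 without Pb replicate 2 and -0.022 without Pb replicate 1, with adjusted p of 0.619 and 0.959 in limma, so its sign rests on Pb replicate 1.

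Tlr8, the genomic neighbour of Tlr7, was at 0.78, 0.79 and 0.68 in controls and at 1.01 and 0.90 in Pb arrays. It was the single receptor of 8 whose Pb values both lay above all controls, which held for 14.1% of all probes tested, and none had both below, which held for 12.7%. The log2 difference was 0.21 (SE 0.16, interval -0.19 to 0.60, limma adjusted p = 0.681), a ratio of 1.15 with an interval of 0.876 to 1.52. The probes of Tlr7 and Tlr8 lie in the same array row, 282.

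Tlr9, which recognises unmethylated CpG DNA, was at 3.28, 3.16 and 3.40 in controls and at 3.69 and 3.32 in Pb arrays. As with Tlr2 and Tlr7, Pb replicate 1 was above the controls and Pb replicate 2 among them. The log2 difference was 0.23 (SE 0.19, interval -0.25 to 0.70, limma adjusted p = 0.701). It was 0.41 without Pb replicate 2, 0.051 without Pb replicate 1 and -0.79 for the 6 arrays as deposited.

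**Figure D2:**
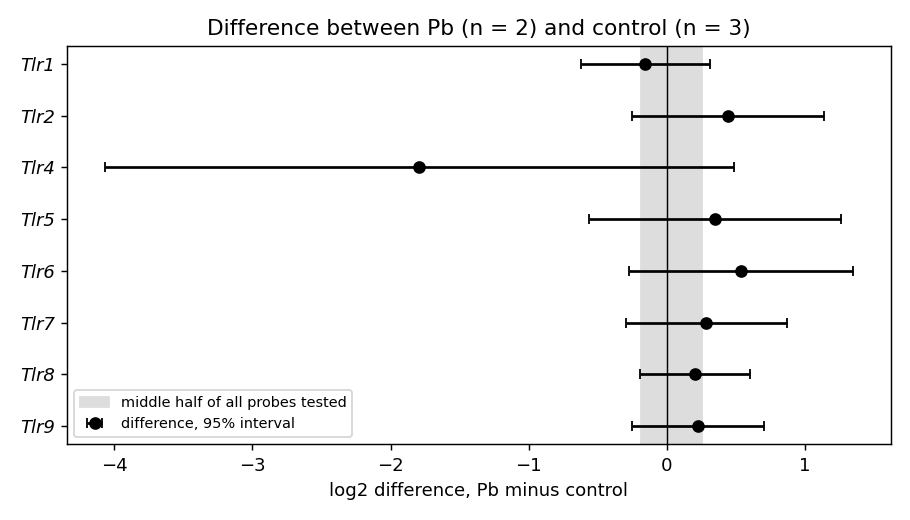
Log2 difference, Pb (n = 2) minus control (n = 3), of each Toll-like receptor probe with its 95% confidence interval from limma; the grey band spans the quartiles of all probes tested, -0.19 and 0.25. All 8 intervals include 0, and that of Tlr4, which includes 1 value raised to the floor, is the widest, from -4.07 to 0.48.

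How small a change these arrays could have missed differed between receptors. For 4 of 8, Tlr1, Tlr7, Tlr8 and Tlr9, the interval lay within a change of 1 on the log2 scale in either direction, as for 70.4% of all probes tested. These bounds hold only after the position correction: without it the 4 differences were -1.61, 1.43, 1.67 and 1.06. The fit also gave Pb replicate 2 the same weight as the other arrays and carried no error from the correction. The intervals may therefore be too narrow. For Tlr2, Tlr5 and Tlr6 a rise of more than 1 was still inside the interval. The interval of Tlr4 rests on a floored value and gives no bound. The median SE was 0.26 for the receptors and 0.22 for all probes. The median SD over the 3 controls was 0.17 for the receptors and 0.16 for all probes.

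Pb replicates 1 and 2 differed in which receptors stood apart. Pb replicate 1 was above all controls for Tlr2, Tlr7, Tlr8 and Tlr9, 4 of 8 against 27.7% of all probes, and below all controls for 0 of 8 against 30.6%. Pb replicate 2 was above for Tlr6 and Tlr8, 2 of 8 against 40.4%, and below for Tlr1 and Tlr4, 2 of 8 against 31.7%. Whether the receptors are particular in this was not tested.

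The position correction changed the receptor values of Pb replicate 2 most. It raised Tlr6 in that array from -2.01 to 1.55 and Tlr1 from 1.69 to 3.97. It lowered Tlr8 from 3.32 to 0.90, Tlr7 from 3.26 to 1.11 and Tlr9 from 4.81 to 3.32. Before correction Tlr6 in array row 11, Tlr2 in row 131, Tlr4 in row 357 and Tlr1 in row 398 were dimmer there than in the controls, and Tlr5, Tlr7, Tlr8 and Tlr9, in rows 282 to 339, were brighter. In Pb replicate 1 the correction changed no receptor by more than 0.51. Without correction the difference of Tlr2 turned to -0.60 and that of Tlr6 to -0.98, and Tlr1 had -1.61 and Tlr4 -2.79. Tlr8 then had 1.67, Tlr5 1.55, Tlr7 1.43 and Tlr9 1.06. In that setting 0 of 8 passed in limma (smallest adjusted p 0.310), with 1, Tlr8, at an unadjusted p of 0.05.

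**Figure D3:**
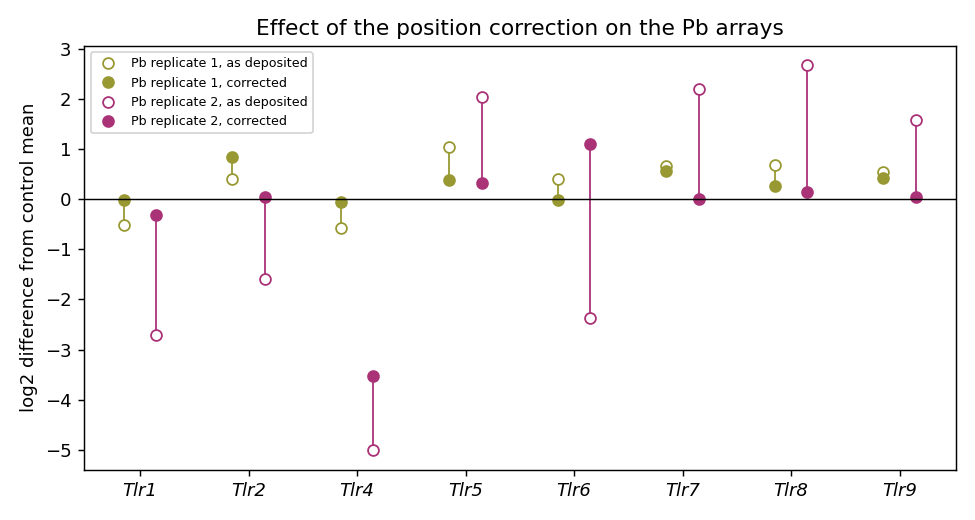
Difference of each Toll-like receptor from the mean of 3 controls (log2, vertical axis) in Pb replicate 1 (olive) and Pb replicate 2 (magenta), before (open) and after (filled) the correction for array position. After it, all Pb replicate 2 values but those of Tlr4 (-3.52) and Tlr6 (1.09) lie within 0.32 of the control mean.

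The array also carries other genes of the pathway. Of 125 listed, 110 were measured and 101 tested, and 0 rose and 0 fell in limma after adjustment over all probes, with 5 of 101 at an unadjusted p of 0.05 (Tnf, Cd209b, Fos, Dusp1 and Ube2n), against 7.24% of all probes. The Pb arrays were both higher than every control for 11 of the 101 and both lower for 15, against 14.1% and 12.7% of all probes. Their median log2 difference was 0.05. In bulk tissue, fewer cells of a type and less RNA per cell cannot be told apart.

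Accessory and processing proteins deliver ligands to the receptors or fold, move and cut them. Of 14 tested, 0 passed, with a median difference of 0.11. Cd14, which hands lipopolysaccharide to TLR4, was at 1.56, 1.05 and 1.25 in controls and at 1.60 and 1.71 in Pb (log2 difference 0.37, limma adjusted p = 0.625). Ly96, the TLR4 partner MD-2, was at 0.46, 0.53 and 0.18 and at 0.58 and 0.83 (0.32, adjusted p = 0.631 in limma). In both, the Pb arrays lay just above the highest control. The sign of Cd14 turned with the processing, to -0.86 for the 6 arrays as deposited, -0.29 uncorrected and -0.096 where the correction did not depend on level. Cnpy4, a relative of the receptor chaperone Cnpy3, differed by 0.30.

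Adaptors and proximal kinases carry the signal from the receptor. Of 17 tested, 0 passed, with a median of 0.12. Ube2n and Ube2v1, which together build the ubiquitin chains that activate TAK1, differed by 0.46 and 0.48 (limma adjusted p = 0.622 and 0.642), and Tbk1, the kinase of IRF3, by 0.36. For Ube2n, the Pb values of 1.29 and 1.63 lay above control values of 1.03, 1.05 and 0.90. For Ube2v1, only Pb replicate 2 did, at 3.42, and its difference was -0.032 without that array and -1.01 for the 6 arrays as deposited. Tbk1 turned to -0.32 for the 6 arrays as deposited and to -0.37 with a surface over array rows alone.

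Among transcription factors and their kinases 0 of 19 passed, with a median of 0.02. Fos, a subunit of AP-1, was at -0.15, 0.41 and -0.47 in controls and at -0.94 and -1.23 in Pb, a difference of -1.02 (SE 0.29, limma adjusted p = 0.622), and was 0.043 without position correction and 0.030 for the 6 arrays as deposited. Irf5, a transcription factor downstream of MyD88, had -0.96 (adjusted p = 0.622 in limma), with Pb replicate 1 at 2.66 among the controls and Pb replicate 2 at 1.00. The kinase Mapk14, known as p38 alpha, had 0.51, which rests on Pb replicate 2, since it was 0.12 without that array and 0.92 without Pb replicate 1. Among negative regulators 0 of 14 passed, with a median of 0.03. Dusp1, a phosphatase of MAP kinases, was at 2.68, 2.79 and 2.92 in controls and at 2.37 and 2.19 in Pb, a difference of -0.52 (limma adjusted p = 0.622). Otud7b, a deubiquitinase, had -0.24, and Inpp5d, the lipid phosphatase SHIP1, 0.37. For Inpp5d the difference was 0.024 without Pb replicate 2, 0.71 without Pb replicate 1 and -0.091 for the 6 arrays as deposited.

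Of 21 cytokines and surface proteins that the receptors induce, 0 passed, with a median of -0.01. Tnf had the smallest adjusted p of the pathway genes, 0.313 in limma, with a log2 difference of -1.17 (SE 0.17). It was at -0.25, -0.07 and -0.10 in controls and at -1.40 and -1.22 in Pb arrays, so the groups did not overlap. Its probe lies in array row 134, 3 rows from that of Tlr2 in row 131, which differed by 0.44. The difference of Tlr2 depended on the position correction, being -0.60 without it. Whether position still bears on either difference after correction was not tested. The interleukin 23 subunit Il23a had 0.28 and the chemokine Ccl3 -0.57, the latter with Pb replicate 1 at 0.88 among the controls and a difference of 0.026 without Pb replicate 2. The sign of Il23a turned to -2.04 for the 6 arrays as deposited, -1.04 uncorrected, -0.16 corrected over rows alone and -0.36 where the correction did not depend on level.

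Of 16 other pattern receptors of innate cells 0 passed, with a median of -0.03. Cd209b, the lectin SIGN-R1 of marginal zone macrophages, was at 2.41, 2.34 and 2.11 in controls and at 1.56 and 0.96 in Pb, a difference of -1.03 (SE 0.24, limma adjusted p = 0.622). Marco, a scavenger receptor of the same cells, had -0.52, with 5.25, 5.37 and 5.22 in the controls and 5.16 and 4.35 in Pb, and turned to 0.27 without position correction. Nod2, a cytosolic sensor of bacterial cell wall fragments, had 0.32. Of the other Toll-like receptors on the array, Tlr11 had a control mean of 1.62 ± 0.07 (SD, n = 3) and Pb values of 1.68 and 1.57, a log2 difference of 0.00 (interval -0.40 to 0.40). Tlr12 had -0.39 (interval -1.07 to 0.30), with Pb replicate 1 at 0.78 among the controls and Pb replicate 2 at -0.05 below them.

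**Figure D4:**
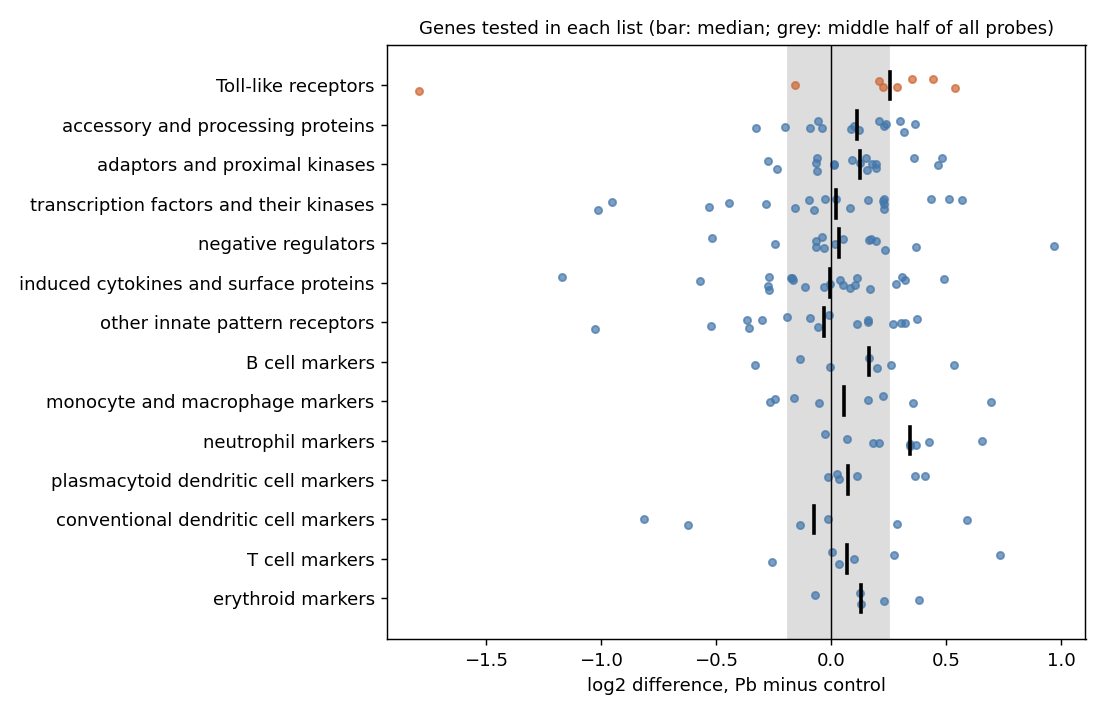
Log2 difference, Pb minus control, of every tested gene in the Toll-like receptor family, in lists of its pathway and in marker lists of spleen cells; bars are medians and the grey band spans the quartiles of all probes tested. The receptors have a median of 0.26 with Tlr4 apart at -1.79, and the pathway lists have medians between -0.03 and 0.12.

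Markers of the cells that carry these receptors were read beside them. Of 9 neutrophil markers tested 0 passed in limma, with a median difference of 0.34. Their median was 0.74 above the control mean in Pb replicate 1 and 0.03 above it in Pb replicate 2. The summed intensity of the 10 measured markers was 358 to 487 in the controls, 672 in Pb replicate 1 and 374 in Pb replicate 2. Csf3r went the other way, at 1.11 in Pb replicate 1 against 1.46, 1.40 and 1.32 in the controls. The sum of this list was thus highest in Pb replicate 1, in which Tlr2, Tlr7, Tlr8 and Tlr9 stood above the controls. That was not particular to neutrophils. The sums for B cells, macrophages, plasmacytoid and conventional dendritic cells were also highest there, those for T cells and erythroid cells not. The plasmacytoid list had 88.5 against 64.7 to 71.3 in the controls. The part of any list in the receptor values was not tested. In Pb replicate 1 the medians were 0.24 for 6 plasmacytoid dendritic cell markers, 0.20 for 6 T cell markers and 0.19 for 7 B cell markers. They were 0.00 for 8 markers of monocytes and macrophages, -0.02 for 6 of conventional dendritic cells and -0.08 for 5 erythroid markers. In Pb replicate 2 these medians were, in the same order, -0.01, -0.10, 0.05, 0.06, -0.25 and 0.44. Of 6 T cell markers 0 passed (median over both Pb arrays 0.07), with Cd3e, a T cell receptor chain, at 0.73 (limma adjusted p = 0.622). Of 5 erythroid markers 0 passed (median 0.13). Over both Pb arrays 0 genes of the B cell, macrophage and dendritic cell lists passed, with 1 at an unadjusted p of 0.05, Cd209a at -0.82 (limma adjusted p = 0.622).

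Pancreatic exocrine genes moved with the Pb group. Of 9 measured and tested markers 8 rose at an adjusted p of 0.05 in limma, against 0.0572% of all probes tested (14 of 24464). The median log2 difference of the 9 was 5.44, and their summed intensity was 4.43 to 4.98 in the controls and 129 to 164 in Pb arrays. This list was chosen with its rise in these samples already known and is no independent evidence of it. Its part in the receptor values was not tested.

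Tlr4 varied most over the 5 arrays (SD 1.57). The single-symbol genes whose values, each relative to its own mean, lay closest to it were Sh2b2, Sergef and Cacng2, with root mean square distances of 0.07, 0.12 and 0.12 on the log2 scale over 5 arrays. All 3 were low in Pb replicate 2 alone, and the deposited values of Sergef and Cacng2 in that array were at or under 0, as was that of Tlr4. For the probe of Tlr3, the receptor for double-stranded RNA, the deposited intensities were 0.81, 1.62 and 0.109 in the controls, in array rows where r between controls was 0.040 to 0.174 over 638 probes.

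Across 18 other settings, Tlr1 and Tlr4 stayed below 0 and Tlr5 and Tlr8 above it in all 18. The sizes were not stable: Tlr1 ran from -1.61 to -0.0077 and Tlr5 from 0.0023 to 1.86, so both came close to 0. The settings share the same arrays and are not independent. Dropping the filter, or setting it at the 50th percentile, leaves every difference as reported, so those settings could not change a sign. Tlr7 and Tlr9 kept their sign in 17, and Tlr2 and Tlr6 in 15. In no setting but that without Pb replicate 1 was a receptor called, and there the 2 were Tlr4 and Tlr6.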

How the data were processed

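The intensities deposited by the authors are linear, 1 per probe and array, with array medians of 0.972 to 0.987; how they were scanned, background-corrected and scaled is not given in the sources used here. Members, lists and tests were chosen with earlier results of these data known. Array rows 402 to 409 (638 probes) and Pb replicate 3 were left out. Intensities at or under 0, or under the 1st percentile of an array's positive values, were set to that percentile, and log2 was taken. Smooth deviations from the mean of 4 arrays (controls and Pb replicate 1) were subtracted from each array, 2 times over (mgcv 1.9.3, bam; tensor products of row with level and row with column; 40, 6 and 8 basis functions). Probes with a mean at or above the 30th percentile were tested with limma 3.58.1 in R 4.3.3 (lmFit, eBayes, two-sided, Benjamini-Hochberg), after a test on simulated data. Of 34949 probes, 21267 had 1 symbol, 673 several and 13009 were not listed; 21140 were found in RefSeq's GRCm38.p6 table, used for names and gene order only. Lists take the brightest probe per gene. Named are all receptors, the 3 pathway genes per list with the smallest p, and the 3 genes most like the most variable receptor; Tlr11, Tlr12, Cd209a, Cd3e and the tissue markers were named after their values were seen. The number of arrays limits the precision.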

Additional observations from a re-analysis of the deposited data

How the results depend on the processing

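The count of 0 receptors called held in 17 of 18 alternatives, and was 0 to 2 with 1 array left out. That of pathway genes was 0 to 10, with 10 without Pb replicate 1, and 0 in the other 17. Calls over all probes were 14, and became 0 for the 6 arrays as deposited, 0 without position correction, 0 without the filter, 7 under array weights; leaving out 1 array gave 3 to 2887. Leaving out a control gave 4, 3 and 6 (replicates 1, 2, 3), and the 2887 came without Pb replicate 1, where the spread of the lone Pb array is assumed to equal that of the controls. The median receptor difference of 0.26 became -0.087 for the 6 arrays, 0.044 with a surface without dependence on level, 0.19 with scaling to the 75th percentile, 0.22 with quantile normalization and 0.034 to 0.32 with 1 array left out (0.034 without Pb replicate 1). The median over all probes was -0.40 for the 6 arrays, -0.15 without correction, -0.23 with a surface over rows alone and -0.21 without dependence on level, while the receptor median was 0.23 without correction and 0.24 over rows alone. Of 468 comparisons of single genes, 434 stayed, 9 gained a call, all without Pb replicate 1 (Tlr4, Tlr6, Mapk14, Ube2v1, Irf5, Ccl3, Marco, Cd209b and Tnf), and 25 changed sign without a call. Nothing in the labels ties same-numbered arrays together, and the r of their deviations from the group means was 0.06 and 0.01. With the replicate block 0 receptors and 0 pathway genes were called, 11 probes in place of 14, and the median receptor difference was 0.23. The causes were not tested. Low signal limits Tlr4 and Tlr5.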
